A study of Mus musculus with 8 samples.

Results

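Liver of 1-month-old C57BL/6 males that lack Arid1a in hepatocytes was compared with wild-type liver of the same age. The comparison rests on 3 of the 8 arrays of the study: 2 knockout arrays, each from 1 mouse (knockouts 1 and 2 in the following), and 1 wild-type array made from a pool of 2 mice. The other 5 arrays, of liver at 5 days (1 wild-type pool, 2 knockouts) and 2 weeks (1 wild type, 1 knockout), enter the estimate of spread or serve for comparison. Total liver RNA was hybridised to one-colour Agilent mouse arrays, and values are log2 signal scaled to the 75th percentile of each array, so a difference of 1 is 2-fold. The design text states that each knockout was to be compared with time-matched control liver. The labels place the knockout in hepatocytes and do not name the recombinase driver or the deleted exons. In whole liver RNA, fewer cells of a type and less RNA per cell cannot be told apart.

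Arid1a is a large DNA-binding subunit of the canonical BAF (SWI/SNF) complex, which uses ATP to slide or evict nucleosomes and so opens promoters and enhancers to transcription factors. The paralogue Arid1b can take its place in the complex. The first weeks of mouse life are the time in which the liver silences its fetal genes, leaves the cell cycle, acquires its metabolic zones and, around puberty, takes on the male or female pattern of enzymes that growth hormone sets. One month falls within that last change.

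The Arid1a probe read 9.35 in the wild-type pool and 8.83 and 8.78 in knockouts 1 and 2, a difference of −0.54 ± 0.15 (SE of the fit; limma adjusted p = 0.243). Both knockouts lay below the pool, but the signal that remained was far above background, and the labels do not say whether the probe lies in the deleted part. Arid1b read 10.01 in the wild-type pool and 9.89 and 9.79 in knockouts 1 and 2, a difference of −0.17 (adjusted p = 0.715). The ATPase subunit Smarca4 differed by −0.11 and −0.06 in knockouts 1 and 2. Of 27 BAF complex subunits measured, 1 was at least 1.5-fold higher in both knockouts and 0 lower, beside 7.18% and 5.44% of all genes. The median difference was −0.01 in knockout 1 and −0.06 in knockout 2. The higher one was Dpf1, a histone reader of the neuronal complex (3.09 in the wild-type pool and 4.11 and 4.62 in knockouts 1 and 2), which was well above background only in knockout 2.

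Signal differed little among the 3 arrays. Of the non-control probes, with 82 flagged ones left out, between 55.68% and 56.78% read well above background. The signal at the 75th percentile ran from 262.8 to 286.4, and no spot was saturated. All 3 arrays were on the same slide. Xist, expressed from the inactive X chromosome, was not above background on any of them (2.3 to 2.36), and the Y-linked gene Ddx3y read 10.44 to 10.59, the pattern of male liver. Of 35 genes of hepatocyte identity, all well above background on the 3 arrays, 0 were 1.5-fold from the pool in both knockouts. With 3 arrays the precision of each value is low.

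Across all 41174 non-control probes of the authors' deposited matrix, 1662 were at least 2-fold higher and 1765 at least 2-fold lower in knockout 1 than in the wild-type pool. In knockout 2 these counts were 2006 and 2099. In both knockouts 793 probes were 2-fold higher and 1209 lower, and 39 were past 2-fold in opposite directions. Among the 21782 probes well above background on all 3 arrays, 212 were 2-fold higher and 374 lower in both, and 4 were opposite. The knockouts differed from each other by at least 2-fold at 364 of these 21782 probes.

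After 1 probe per gene was chosen and dim probes were left out, 17451 genes were tested. The difference from the pool had an SD of 0.599 over genes in knockout 1 and 0.694 in knockout 2, against 0.459 between the knockouts, and the medians were 0.04 and 0.05. Both differences contain the same wild-type array, so any deviation of that pool appears in both of them. By limma with 6 groups of age and genotype, 12 genes (0.0688%) passed an adjusted p of 0.05, 7 higher (0.0401%) and 5 lower (0.0287%). With an unadjusted p below 0.05 there were 1534 higher (8.79%) and 1080 lower (6.19%). The p-values measure the spread within the knockout pairs, since the wild type has no replicate, and nothing in the labels says how the mice of a pair were related. In the 5-day pair, which gives 1 of the 2 residual degrees of freedom, the mice differed in Xist (13.43 and 1.74), in Ddx3y (1.93 and 10.69) and in the median of skeletal muscle genes against their pool (5.48 and −0.08). Every adjusted p rests on a spread that includes these differences.

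A wider count was taken of genes at least 1.5-fold from the pool in both knockouts, with no test. It held 1253 genes higher (7.18%) and 950 lower (5.44%), and these shares are the background against which the gene lists are read. A list whose counts lie near these shares does not stand out from all genes. Of the higher genes 566 were not well above background in the pool and 219 (17.5%) were not in either knockout. Of the lower genes 204 were not well above background in either knockout and 70 (7.37%) were not in the pool. Of the genes past this rule 56.9% were higher, a share of 42.6% after normexp background correction and 50% after median centring.

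**Figure D1:**
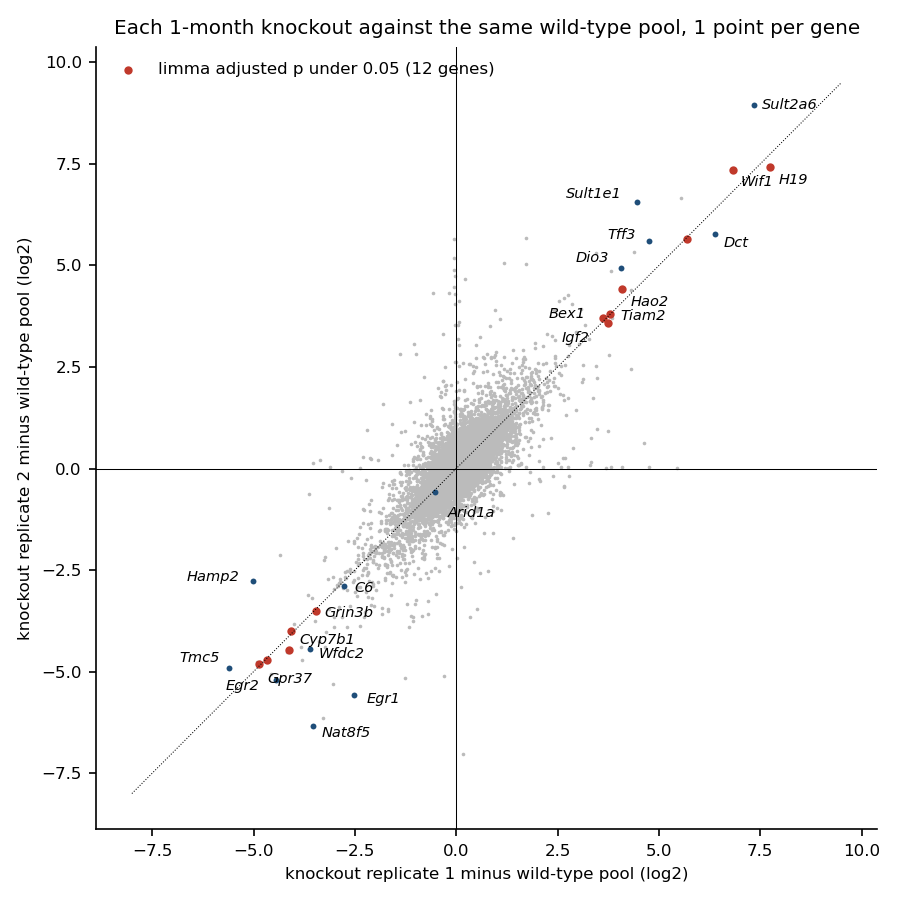
Difference from the wild-type pool (log2) in knockout 1 (horizontal) and knockout 2 (vertical) for 17451 genes; red points passed the limma test, blue points are some of the other genes named in the text, and the dotted line marks equal differences. The 12 red points lie close to the line, since the test rests on the spread between knockouts, while Egr1, Nat8f5 and Hamp2 lie away from it.

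H19, the maternally expressed imprinted RNA that is abundant in fetal liver, had the smallest unadjusted p of all genes tested. It read 5.63 in the wild-type pool and 13.37 and 13.04 in knockouts 1 and 2. Both knockouts were thus far above the pool and close to each other, and the gene rose 191-fold (log2 difference 7.58 ± 0.21, limma adjusted p = 0.0252). Its neighbour Igf2, the fetal growth factor imprinted in the opposite sense, read 3.51 in the wild-type pool and 7.25 and 7.09 in knockouts 1 and 2, where the pool was not well above background. Igf2 rose at least 7.54-fold (adjusted p = 0.0412). Such bounds set the brighter side against the weakest signal that counts as well above background on the dim arrays. Where a dim reading lay above that signal, the reading itself was used. A second probe of each gene gave 6.51 for H19 and 2.74 for Igf2. A bound thus holds only for the chosen probe and the main processing.

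Wif1, a secreted protein that binds and neutralises Wnt ligands, read 3.48 in the wild-type pool and 10.30 and 10.84 in knockouts 1 and 2. Only the knockouts were above background, and it rose at least 79.4-fold (limma adjusted p = 0.0412). Hao2, a peroxisomal oxidase of long-chain hydroxy acids that adult female mouse liver expresses more than male, read 8.31 in the wild-type pool and 12.40 and 12.72 in knockouts 1 and 2 and rose 19-fold (adjusted p = 0.0412). Tiam2, an exchange factor for the GTPase Rac, read 4.53 in the wild-type pool and 8.32 and 8.33 in knockouts 1 and 2, a rise of 13.9-fold (adjusted p = 0.0412). Bex1, a small adaptor protein of growth factor signalling found in fetal and regenerating tissue, read 2.34 in the wild-type pool and 5.96 and 6.05 in knockouts 1 and 2 and rose at least 3.37-fold (adjusted p = 0.0456). The seventh gene past the test was an unnamed cDNA clone.

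Among the genes that fell, Cyp7b1, the oxysterol hydroxylase of the acidic bile acid pathway and a male-biased enzyme of mouse liver, was measured on both sides. It read 14.39 in the wild-type pool and 10.27 and 9.92 in knockouts 1 and 2, both knockouts well below the pool, a fall of 19.7-fold (log2 difference −4.30 ± 0.21, limma adjusted p = 0.0412). Grin3b, a glutamate receptor subunit, read 7.24 in the wild-type pool and 3.78 and 3.73 in knockouts 1 and 2 and fell at least 7.88-fold (adjusted p = 0.0412). Gpr37, an orphan receptor related to endothelin receptors, read 7.10 in the wild-type pool and 2.22 and 2.29 in knockouts 1 and 2, a fall of at least 7.14-fold (adjusted p = 0.0412), but with no filter on dim probes another probe of the gene was taken and differed by 0.97. The other two were a pseudogene of the serpin family (Serpina4-ps1) and an unnamed transcript.

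None of the 12 passed when the fit had 1 residual degree of freedom, as with the 1-month arrays alone, with the slide or replicate block, or without any 1 of the knockouts, 5-day ones included. In those fits the smallest adjusted p was 0.0953 to 0.170. H19, Cyp7b1, Hao2, Tiam2 and Serpina4-ps1 each passed in 8 of the 15 alternatives. Some of the 15 are the same fit for this contrast, so they are not all separate checks. Over the alternatives the log2 difference was as small as 1.32 for Igf2, 0.79 for Bex1, 3.92 for Wif1 and −1.36 for Grin3b. These values fall short of the bounds given above.

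**Figure D2:**
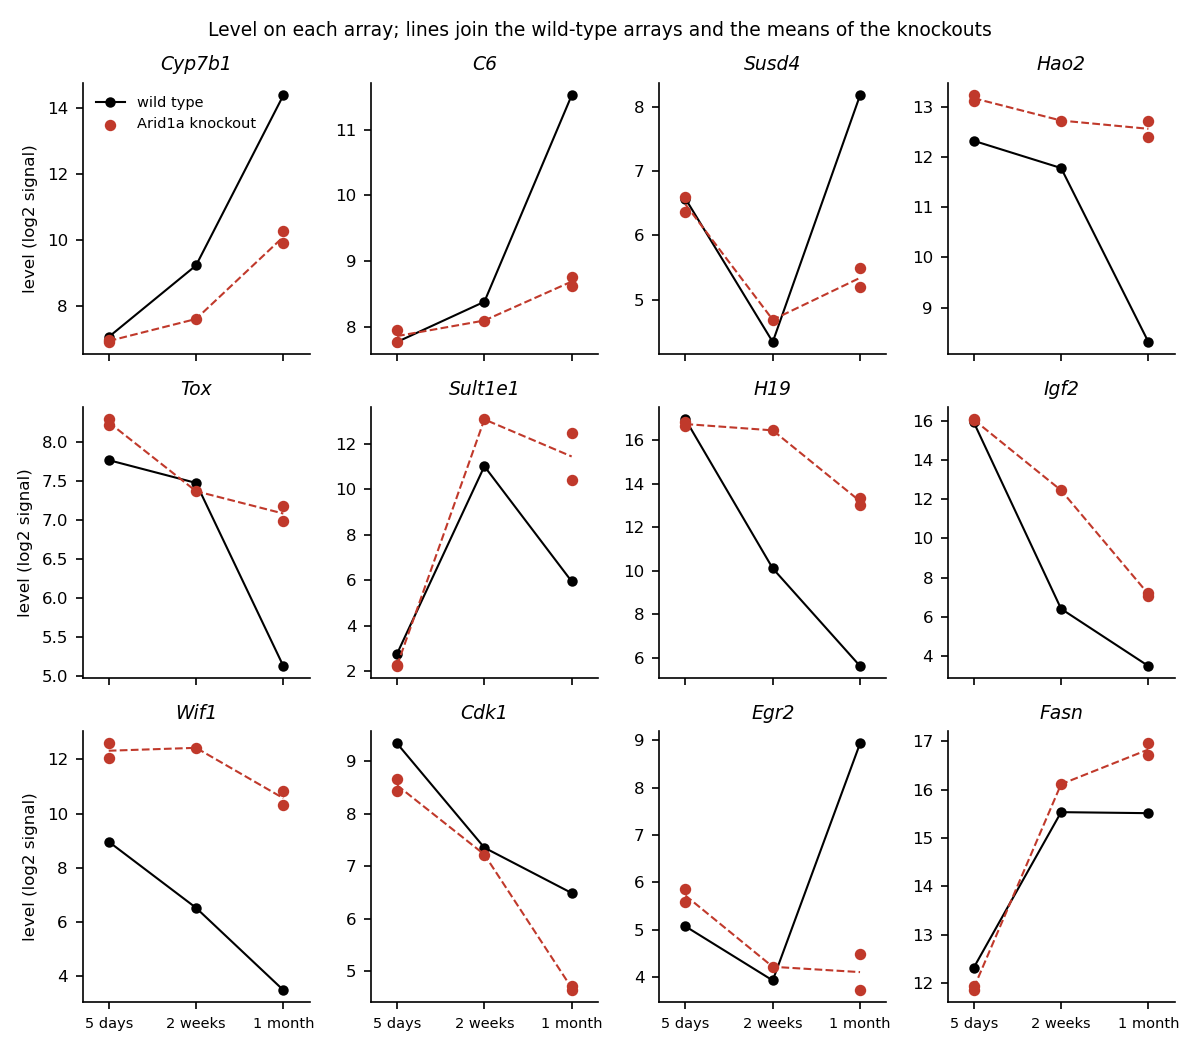
Level (log2 signal) of 12 genes on each of the 8 arrays by age; black points are wild-type arrays, red points single knockout mice, and lines join the wild-type arrays and the knockout means. Wild-type Cyp7b1 reads 7.05 at 5 days and 14.39 at 1 month, and wild-type H19 16.97 and 5.63, and the 1-month knockouts stand between these values.

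Genes that liver expresses before and around birth were higher in part, H19 and Igf2 foremost. Of 33 listed fetal and imprinted genes 29 were measured. In both knockouts 11 were at least 1.5-fold higher and 1 was lower, beside 7.18% and 5.44% of all genes. The median difference was 0.36 in knockout 1 and 0.23 in knockout 2, beside 0.04 and 0.05 over all genes. Lpl, lipoprotein lipase, which adult hepatocytes largely silence, read 12.32 in the wild-type pool and 13.99 and 14.05 in knockouts 1 and 2 (limma adjusted p = 0.0580). The oncofetal proteoglycan Gpc3 read 4.60 in the wild-type pool and 6.85 and 6.63 in knockouts 1 and 2 (adjusted p = 0.0661). That is 4.42-fold higher, against a pool reading that was not well above background. Afp, fetal serum albumin, was chosen after its values were seen: it read 7.70 in the wild-type pool and 9.14 and 9.32 in knockouts 1 and 2, 2.89-fold higher (adjusted p = 0.0782), while the wild type of 5 days read 17.68. For these 3 genes both knockouts lay above the pool, as for 44% of all genes, and none passed the test.

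In wild-type liver the whole list had a mean level of 11.65 at 5 days. It was 8.77 in the 2-week mouse and 7.41 in the 1-month pool. In the 1-month knockouts it was 8.27 and 8.45. By this mean the 1-month knockouts stood nearer to wild-type liver of 2 weeks than the pool of their own age did. Wide single differences such as that of H19 (7.74 and 7.41 in knockouts 1 and 2) weigh on it, and 17 of the 29 genes passed the fold rule in neither direction.

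In Wnt signalling, ligands bind Frizzled receptors, secreted inhibitors hold the ligands back, and the surface enzyme Rnf43 removes the receptors. Of 50 measured Wnt ligands, receptors and inhibitors 7 were 1.5-fold higher and 4 lower in both knockouts, beside 7.18% and 5.44% of all genes. The median difference was 0.04 in knockout 1 and −0.02 in knockout 2. Beside Wif1, the non-canonical ligand Wnt5a read 4.13 in the wild-type pool and 5.97 and 6.39 in knockouts 1 and 2 (at least 3.80-fold, limma adjusted p = 0.0822). Amer2, a membrane partner of the tumour suppressor APC, read 4.29 in the wild-type pool and 6.47 and 6.14 in knockouts 1 and 2 (4.04-fold, adjusted p = 0.117). Its pool reading was not well above background, and the difference was 2.01 beside 1.27 by its second probe. The receptor Fzd3 was on the other side, with 6.64 in the wild-type pool and 5.45 and 5.23 in knockouts 1 and 2 (adjusted p = 0.143).

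Targets of Wnt signalling, which marks hepatocytes around the central vein, split. Of 30 such genes 4 were higher and 4 lower by the same rule, beside 7.18% and 5.44% of all genes. Rnf43 was 2.36-fold higher, at 9.51 in the wild-type pool and 10.76 and 10.74 in knockouts 1 and 2 (adjusted p = 0.0874). The target transcription factor Sp5 differed by 0.97 and 0.97, and the pericentral drug enzyme Cyp1a2 by 0.77 and 0.84. The transporters of this zone went the other way, the glutamate transporter Slc1a2 by −1.55 and −2.65 and the dicarboxylate transporter Slc13a3 by −1.36 and −2.50. Axin2, chosen after its values were seen as the usual reporter of the pathway, differed by 1.30 and 0.35 and was not well above background in the pool or in knockout 2.

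The lists of sex-biased liver genes were among the farthest from the pool, although all mice were labelled male. Of 29 measured male-biased genes 17 were at least 1.5-fold lower in both knockouts and 1 was higher. The median difference was −0.70 in knockout 1 and −1.07 in knockout 2. Of 26 female-biased genes 16 were higher and 1 was lower, with a median of 1.03 in knockout 1 and 1.78 in knockout 2. The share of male-biased genes that were lower and of female-biased genes that were higher stands beside 5.44% and 7.18% over all genes.

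Among the male-biased genes after Cyp7b1, the terminal complement component C6 read 11.52 in the wild-type pool and 8.76 and 8.62 in knockouts 1 and 2, 7.11-fold lower (limma adjusted p = 0.0541). Susd4, an inhibitor of complement activation, read 8.19 in the wild-type pool and 5.49 and 5.19 in knockouts 1 and 2 (7.20-fold, adjusted p = 0.0558). The major urinary protein Mup6, a pheromone carrier, read 12.53 in the wild-type pool and 10.90 and 10.68 in knockouts 1 and 2 (3.35-fold, adjusted p = 0.0815), although its probe may also bind close relatives. Others, chosen after their values were seen, were the lauric acid hydroxylase Cyp4a12a (14.87 in the wild-type pool and 12.26 and 11.50 in knockouts 1 and 2), the fatty acid elongase Elovl3 (12.65 in the wild-type pool and 10.28 and 8.77 in knockouts 1 and 2) and complement C9 (12.85 in the wild-type pool and 10.67 and 10.27 in knockouts 1 and 2). For each of these 6 genes both knockouts lay below the pool, as for 32.1% of all genes, and none passed the test. The abundant Mup1, also chosen after its values were seen, differed by −0.28 and −0.27. Sult1c2, a sulphotransferase placed in the male list, was the exception on the higher side, at 9.02 in the wild-type pool and 11.23 and 11.62 in knockouts 1 and 2 (5.30-fold, adjusted p = 0.0705).

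Among the female-biased genes after Hao2, the oestrogen sulphotransferase Sult1e1 read 5.95 in the wild-type pool and 10.40 and 12.50 in knockouts 1 and 2, 45.3-fold higher (limma adjusted p = 0.127). Tox, a nuclear protein best known from T cells and a female-biased gene of liver, read 5.13 in the wild-type pool and 6.99 and 7.18 in knockouts 1 and 2 (3.86-fold, adjusted p = 0.0580). For both genes knockouts 1 and 2 lay above the pool, as for 44% of all genes.

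Sulphotransferases of the Sult2a family act on steroids and bile acids and are female-biased in adult mice. Among the 1-month arrays Sult2a6 and Sult2a4 were above background only in the knockouts. In younger wild-type liver Sult2a6 read 12.2 at 5 days and 15.9 at 2 weeks, and Sult2a4 9.79 and 12.5. Sult2a6 read 4.08 in the wild-type pool and 11.41 and 13.02 in knockouts 1 and 2, at least 249-fold higher (adjusted p = 0.0580). Sult2a4 read 2.21 in the wild-type pool and 7.76 and 8.87 in knockouts 1 and 2, at least 16.7-fold higher (adjusted p = 0.135). Members of this family are close in sequence, so the probes may read more than their own gene. Of the cytochromes of the Cyp2b family, chosen after their values were seen, Cyp2b9 differed by 2.84 and 4.06, Cyp2b13 by 2.77 and 4.27 and Cyp2b10 by 2.65 and 4.19, again close relatives.

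Further female-biased genes of small p were the fatty acid hydroxylase Cyp4a14 (1.79 and 2.16 in knockouts 1 and 2), the proton pump subunit Atp6v0d2 (1.20 and 1.54, with the pool not well above background) and the peroxisomal transporter Abcd2 (1.47 and 2.00, a mean of 1.73 beside 0.96 by its second probe). Hamp2, a relative of the iron hormone hepcidin chosen after its values were seen, was the list's exception: it read 16.27 in the wild-type pool and 11.25 and 13.50 in knockouts 1 and 2, lower in both knockouts and by different amounts. Most of these genes differed more in knockout 2 than in knockout 1, as the list medians show.

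Wild-type levels of these genes differed with age. The male-biased list had a mean wild-type level of 7.90 on day 5, 10.42 in week 2 and 13.25 in the 1-month pool, against 12.18 and 11.94 in the 1-month knockouts. That of the female-biased list was 9.20, 11.27 and 8.54, against 9.71 and 10.35. At 2 weeks the knockout minus wild type medians were −0.81 for the male-biased and −0.43 for the female-biased list. So at 2 weeks the female-biased list lay on the lower side, unlike at 1 month. At 5 days they were between −0.10 and 0.03, and between −0.19 and 0.23, where the wild-type pool and knockout 1 of that age carried Xist signal (12.13 and 13.43) and are no male reference.

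Of 19 genes of the growth hormone axis, which sets the sex pattern, 1 was higher and 3 lower by the fold rule, beside 7.18% and 5.44% of all genes. The receptor Ghr differed by −0.44 and −0.70 and its main product Igf1 by −0.16 and −0.29, both chosen after their values were seen. The binding protein Igfbp1 read 17.06 in the wild-type pool and 15.22 and 13.46 in knockouts 1 and 2 (limma adjusted p = 0.234) and Igfbp2 14.27 in the wild-type pool and 14.99 and 15.02 in knockouts 1 and 2 (adjusted p = 0.214). Socs1, a feedback inhibitor of cytokine signalling, differed by −0.89 and −0.71 and Igfbp5 by −0.67 and −0.92. The repressor Bcl6, a male-biased gene under growth hormone, read 11.79 in the wild-type pool and 11.31 and 9.60 in knockouts 1 and 2, with the 2 knockouts far apart.

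Growth hormone acts in liver through STAT5, which binds the letters TTCNNNGAA. Promoters, here the 250 bases before the start of transcription in RefSeq (GRCm38.p6), were searched for that pattern, which reads the same on both strands. It was present in 4 of 21 male-biased promoters found in the table (19%), in 4 of 20 female-biased ones (20%) and in 1940 of 27025 of all genes (7.18%). A match is a description of the letters and not a binding site. The promoters of 3 genes of the lists that hold it are shown, since they stand for the lower, the discordant and the higher members, with matches in capitals: Keg1, a male-biased acyltransferase-like gene (chr19:12695540-12695789, plus strand; −2.44 and −1.70 in knockouts 1 and 2), Hamp2 (chr7:30924182-30924431, minus strand) and A1bg, a female-biased plasma glycoprotein (chr15:60921271-60921520, minus strand; 2.64 and 1.82). Keg1 holds 2 matches and each of the others 1.
Keg1: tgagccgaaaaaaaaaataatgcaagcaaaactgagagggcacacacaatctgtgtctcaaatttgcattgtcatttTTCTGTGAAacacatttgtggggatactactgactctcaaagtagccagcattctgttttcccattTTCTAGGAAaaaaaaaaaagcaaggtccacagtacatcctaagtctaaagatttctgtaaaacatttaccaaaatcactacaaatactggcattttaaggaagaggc
Hamp2: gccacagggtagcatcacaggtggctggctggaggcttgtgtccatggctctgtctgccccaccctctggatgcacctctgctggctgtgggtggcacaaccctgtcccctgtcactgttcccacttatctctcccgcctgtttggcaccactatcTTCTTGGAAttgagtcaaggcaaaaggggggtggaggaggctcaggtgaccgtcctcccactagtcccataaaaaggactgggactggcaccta
A1bg: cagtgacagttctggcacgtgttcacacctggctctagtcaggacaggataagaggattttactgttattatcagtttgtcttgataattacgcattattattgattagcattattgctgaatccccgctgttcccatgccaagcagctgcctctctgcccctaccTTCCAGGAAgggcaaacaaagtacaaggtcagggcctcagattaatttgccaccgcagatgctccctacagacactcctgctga
No match lay in this window of Hao2 or C6.

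Cell cycle genes were lower in the 1-month knockouts. Of 65 such genes 38 were at least 1.5-fold lower in both knockouts and 0 were higher, beside 5.44% and 7.18% of all genes. The median was −0.95 in knockout 1 and −1.01 in knockout 2. Of the 38 lower genes 33 were well above background in the pool. Over the 53 genes above background in the pool or a knockout the medians were −0.98 and −1.03. No gene of the list passed the adjusted test, and 40 of 65 had an unadjusted p below 0.05 on the lower side, beside 6.19% of all genes.

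Cdk1, the kinase that drives entry into mitosis, read 6.49 in the wild-type pool and 4.72 and 4.64 in knockouts 1 and 2, 3.50-fold lower (limma adjusted p = 0.0711). Mcm10, which starts replication forks, read 14.10 in the wild-type pool and 11.77 and 11.49 in knockouts 1 and 2 (5.55-fold, adjusted p = 0.0580). Unlike the mean of the list, its wild-type level was highest at 1 month, with 11.40 at 5 days and 11.01 at 2 weeks. The proliferation antigen Mki67 (8.98 in the wild-type pool and 7.87 and 7.46 in knockouts 1 and 2) and the topoisomerase Top2a (6.13 in the wild-type pool and 4.81 and 3.98 in knockouts 1 and 2) were chosen after their values were seen. For all 4 genes both knockouts lay below the pool, as for 32.1% of all genes. The mitotic kinase Aurkb (−2.15 and −2.08), the spindle protein Ska1 (−2.06 and −2.26) and the kinetochore protein Ndc80 (−1.12 and −1.15) had small p but were not well above background on any of the 3 arrays, so they carry no fold.

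At the earlier ages the list read differently. The median was −0.57 and −0.48 in the 5-day knockouts and 0.20 at 2 weeks. Mean wild-type levels by age were 9.57, 7.56 and, in the 1-month pool, 7.13, and 6.33 and 6.17 in the 1-month knockouts. Of the p53 targets, Cdkn1a, which halts the cycle, was lower too, at 12.46 in the wild-type pool and 11.28 and 11.76 in knockouts 1 and 2 (adjusted p = 0.245), and Trp53inp1 differed by −1.58 and −2.83. By the fold rule 4 of 28 p53 targets were lower and 0 higher, beside 5.44% and 7.18% of all genes.

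Promoters of cell cycle genes often hold the CCAAT box, bound by the factor NF-Y. Searched as CCAAT on both strands in the same 250 bases, it was present in 38 of 54 cell cycle promoters found (70.4%) and in 9314 of 27025 of all genes (34.5%). The promoters of 3 of them are shown because their genes are the lower ones described above, with the box in capitals (ATTGG where it lies on the other strand). Cdk1 (chr10:69352913-69353162, minus strand) holds 3 boxes, Top2a (chr11:99024190-99024439, minus strand) 6 and Mcm10 (chr2:5012792-5013041, minus strand) 2.
Cdk1: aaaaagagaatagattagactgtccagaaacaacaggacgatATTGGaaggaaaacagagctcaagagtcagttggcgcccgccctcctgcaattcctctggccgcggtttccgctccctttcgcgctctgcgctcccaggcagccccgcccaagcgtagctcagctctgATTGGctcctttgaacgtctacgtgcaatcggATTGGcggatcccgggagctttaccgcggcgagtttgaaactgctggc
Top2a: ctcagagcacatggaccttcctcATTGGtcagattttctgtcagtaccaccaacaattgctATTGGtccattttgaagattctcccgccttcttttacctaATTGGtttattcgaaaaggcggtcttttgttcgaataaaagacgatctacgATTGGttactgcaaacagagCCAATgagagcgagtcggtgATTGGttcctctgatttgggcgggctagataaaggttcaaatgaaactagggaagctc
Mcm10: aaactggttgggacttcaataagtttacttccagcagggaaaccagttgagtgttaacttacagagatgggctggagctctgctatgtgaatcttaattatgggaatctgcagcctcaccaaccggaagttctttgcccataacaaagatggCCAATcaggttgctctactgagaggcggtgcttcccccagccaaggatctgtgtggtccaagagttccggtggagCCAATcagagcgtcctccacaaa
The window of Ndc80 holds 0.

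Immediate early and heat shock genes, which cells induce within minutes of a stimulus or of protein damage, were likewise lower. Of 31 such genes 16 were lower by the fold rule and 0 higher, beside 5.44% and 7.18% of all genes. The median was −0.94 in knockout 1 and −0.90 in knockout 2. Egr2, a zinc finger factor, read 8.93 in the wild-type pool and 4.48 and 3.72 in knockouts 1 and 2, at least 23.3-fold lower (limma adjusted p = 0.0558). The heat shock protein Hspa1a read 11.24 in the wild-type pool and 9.25 and 9.15 in knockouts 1 and 2 (4.10-fold, adjusted p = 0.0567), and its near-identical copy Hspa1b differed by −1.74 and −1.5. The cochaperone Dnajb1 read 14.63 in the wild-type pool and 12.31 and 12.68 in knockouts 1 and 2 (4.39-fold, adjusted p = 0.0815). Second probes gave smaller differences, −0.89 for Dnajb1 and −0.82 for Hspa1b beside −2.13 and −1.62. Btg2, an antiproliferative early gene, differed by −1.65 and −1.87.

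In this list the pool stood apart from younger wild-type liver. Egr2 read 5.07 at 5 days and 3.93 at 2 weeks in wild type, against 8.93 at 1 month, and the mean level of the list was 9.24, 9.68 and 10.84. The 1-month knockouts had list means of 9.79 and 9.72, close to the younger wild types. Egr1 and Fos, chosen after their values were seen, also showed the knockouts apart from each other, with Egr1 at 13.49 in the wild-type pool and 10.96 and 7.92 in knockouts 1 and 2 and Fos at 9.02 in the wild-type pool and 7.90 and 5.40 in knockouts 1 and 2. The kinase Plk3, induced by stress, read 12.95 in the wild-type pool and 9.79 and 10.23 in knockouts 1 and 2 (7.63-fold lower, adjusted p = 0.0567).

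Clock genes lay on both sides of the pool. The repressor Nr1d1 read 4.86 in the wild-type pool and 7.36 and 6.85 in knockouts 1 and 2 (limma adjusted p = 0.0850), though another of its 3 probes gave −0.34. Per1 read 9.30 in the wild-type pool and 8.02 and 7.60 in knockouts 1 and 2 (adjusted p = 0.118) and the clock-controlled protease Usp2 7.56 in the wild-type pool and 5.89 and 5.77 in knockouts 1 and 2 (adjusted p = 0.0779). Tspan4 differed by −1.01 and −0.95. Of 22 clock genes 1 was higher and 3 were lower, beside 7.18% and 5.44% of all genes, and the labels give no hour of sampling. The part of the pool's early gene and clock levels in the other results was not tested.

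**Figure D3:**
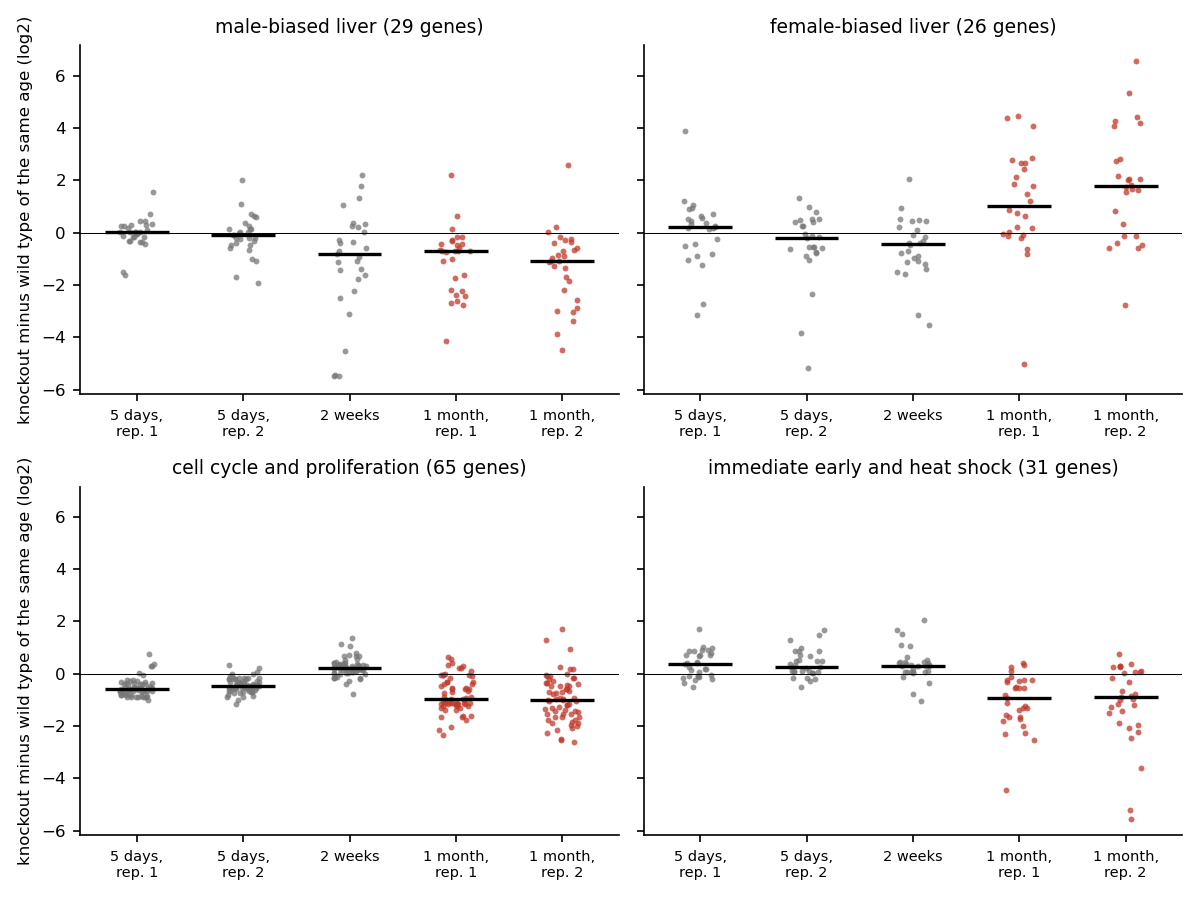
Knockout minus wild type of the same age (log2) for each measured member of 4 gene lists on each of the 5 knockout arrays; each point is a gene, the bar is the list median, and 1-month arrays are red. The 1-month medians are −0.70 and −1.07 (male-biased), 1.03 and 1.78 (female-biased), −0.95 and −1.01 (cell cycle), and −0.94 and −0.90 (immediate early and heat shock).

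Genes that make fatty acids were higher in part. Of 32 genes of fatty acid and triglyceride synthesis 11 were 1.5-fold higher in both knockouts and 1 (Elovl3) was lower, beside 7.18% and 5.44% of all genes. The median was 0.29 in knockout 1 and 0.41 in knockout 2. Fatty acid synthase Fasn read 15.51 in the wild-type pool and 16.70 and 16.95 in knockouts 1 and 2, 2.49-fold higher (limma adjusted p = 0.106). Acaca, which makes its substrate malonyl-CoA, differed by 0.97 and 0.77, the elongase Elovl5 by 1.09 and 0.95 and the desaturase Scd2 by 1.19 and 1.11. The lipid droplet enzyme Pnpla3 read 5.02 in the wild-type pool and 7.14 and 6.80 in knockouts 1 and 2 (3.86-fold, adjusted p = 0.150).

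In lipid storage and uptake 6 of 34 genes were higher and 4 lower, beside 7.18% and 5.44% of all genes. G0s2, which inhibits lipolysis, read 10.91 in the wild-type pool and 12.95 and 13.11 in knockouts 1 and 2. The adipogenic receptor Pparg lay below the pool, at 9.51 in the wild-type pool and 8.20 and 7.58 in knockouts 1 and 2 (limma adjusted p = 0.148). Of 44 fatty acid oxidation genes and PPAR alpha targets 7 were higher, among them Cyp4a31 (1.73 and 2.24), the peroxisomal thiolase Acaa1b (1.04 and 1.39), the pantetheinase Vnn1 (1.35 and 1.99) and the peroxisomal enzyme Ehhadh (1.25 and 1.80), and 2 were lower. Cholesterol biosynthesis had 4 of 26 higher and 0 lower, with a median of 0.43 in knockout 1 and 0.30 in knockout 2. Of the subunits of oxidative phosphorylation 59 of 60 lay above the pool in both knockouts beside 44% of all genes, with a median of 0.34 in knockout 1 and 0.34 in knockout 2.

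Periportal hepatocytes carry out urea synthesis and much of amino acid breakdown. Of 23 periportal genes 7 were higher and 2 lower, and of 50 amino acid and urea genes 10 and 3, beside 7.18% and 5.44% of all genes. The urea cycle enzyme Ass1 read 16.66 in the wild-type pool and 17.65 and 17.63 in knockouts 1 and 2 (limma adjusted p = 0.116). Cth, which makes cysteine, differed by 1.15 and 1.26, the betaine methyltransferase Bhmt by 1.48 and 1.41, the glycine decarboxylase Gldc by 0.82 and 0.89 and the mitochondrial aldehyde dehydrogenase Aldh1b1 by 1.48 and 1.83. Among the lower ones were the adhesion protein Cdh1 at 10.34 in the wild-type pool and 8.73 and 8.06 in knockouts 1 and 2 and the aromatic amino acid decarboxylase Ddc at 12.53 in the wild-type pool and 10.90 and 11.20 in knockouts 1 and 2.

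Bile acid genes were mixed, 5 of 32 higher and 4 lower, beside 7.18% and 5.44% of all genes. The efflux pumps Abcg2 and Abcc3 lay below the pool, Abcg2 at 13.19 in the wild-type pool and 11.60 and 11.31 in knockouts 1 and 2 (limma adjusted p = 0.0782) and Abcc3 at 12.32 in the wild-type pool and 10.57 and 9.63 in knockouts 1 and 2 (adjusted p = 0.150). The uptake transporter Slc10a1 was 2.07-fold higher (adjusted p = 0.117). Among conjugating enzymes 11 of 49 were higher and 6 lower, beside the same shares of all genes. Sult1d1 differed by 1.46 and 1.51, and the glutathione transferases Gstt3 by 1.81 and 2.09 and Gstm4 by 1.10 and 1.15. Of 70 cytochrome P450 and other phase I genes 10 were higher and 12 lower, beside the same shares.

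Dio3, the deiodinase that inactivates thyroid hormone in the fetus, read 2.42 in the wild-type pool and 6.48 and 7.34 in knockouts 1 and 2, at least 6.30-fold higher (limma adjusted p = 0.0789). The thyroxine-binding globulin Serpina7 differed by 1.26 and 1.73. In retinoid metabolism Aldh1a2, which makes retinoic acid, read 4.40 in the wild-type pool and 6.28 and 6.04 in knockouts 1 and 2 (adjusted p = 0.0874) and the retinol dehydrogenase Rdh5 11.03 in the wild-type pool and 12.50 and 12.57 in knockouts 1 and 2 (adjusted p = 0.0718). Over the 33 genes of both pathways 6 were higher and 2 lower, beside 7.18% and 5.44% of all genes.

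Interferon and antigen presentation genes were higher in 13 of 38 cases and lower in 1, beside 7.18% and 5.44% of all genes. Their median was 0.49 in knockout 1 and 0.58 in knockout 2. Isg15, a ubiquitin-like protein that interferon induces, read 9.59 in the wild-type pool and 10.64 and 10.53 in knockouts 1 and 2 (limma adjusted p = 0.131). The factor Irf1 differed by 0.86 and 0.98, the GTPase Gbp2 by 1.06 and 1.30 and Ifit2 by 0.86 and 0.69. Acute phase genes had 9 of 39 higher and 3 lower, beside the same shares of all genes. Serpina3n, a protease inhibitor of inflammation, read 11.84 in the wild-type pool and 13.68 and 14.06 in knockouts 1 and 2 (adjusted p = 0.0874), Saa3 read 11.28 in the wild-type pool and 12.90 and 13.50 in knockouts 1 and 2 (adjusted p = 0.117) and Saa1 13.88 in the wild-type pool and 15.49 and 16.23 in knockouts 1 and 2 (adjusted p = 0.155). Lbp differed by 0.82 and 0.98 and Crp by 0.81 and 1.18. Genes of the unfolded protein response and chaperones of the endoplasmic reticulum lay on the low side. By the fold rule 4 of 32 were lower, beside 5.44% of all genes, and 28 were below the pool in both knockouts, beside 32.1%. The cochaperone Dnajc12 differed by −1.08 and −1.13.

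Markers of the blood cells in liver had medians above 0, more so in knockout 2, with members on both sides. Their counts by the fold rule stand beside 7.18% higher and 5.44% lower over all genes. Lymphocyte markers were higher in 7 of 27 (T cell receptor chain Cd3d at 4.78 in the wild-type pool and 5.64 and 6.15 in knockouts 1 and 2) and lower in 0, and their mean level was 5.14 in the pool and 5.47 and 5.69 in the knockouts. Neutrophil markers had medians of 0.04 in knockout 1 and 0.64 in knockout 2, 7 of 25 higher and 3 lower, among them the granule protein gene Ngp (−1.40 and −1.31), and mean levels of 5.54, 5.73 and 6.18. Macrophage markers had medians of 0.01 in knockout 1 and 0.20 in knockout 2, 5 of 39 higher and 2 lower, among them the chemokine Ccl2 (−1.68 and −1.51). Erythroid markers had medians of 0.22 in knockout 1 and 0.47 in knockout 2, 7 of 33 higher and 4 lower, among them the haem synthesis enzyme Alas2 (−0.92 and −1.25) and the carbonic anhydrase Car1 (−0.95 and −1.02). In knockout 1 the neutrophil and macrophage medians were close to that of all genes. For macrophages the mean levels were 8.76, 8.87 and 9.04, and for erythroid cells 7.05, 7.32 and 7.65. Their part in the interferon and acute phase values was not tested.

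Stellate cell and matrix genes had a median of 0.38 in knockout 1 and 0.30 in knockout 2. By the fold rule 4 of 49 were higher and 0 lower, beside 7.18% and 5.44% of all genes. Matrix Gla protein Mgp and fibulin Fbln2 differed by 0.97 and 0.76 and 0.96 and 0.64. Cholangiocyte and ductular genes had 5 of 26 higher and 3 lower, beside the same shares of all genes. Fibrocystin (Pkhd1) read 8.38 in the wild-type pool and 9.91 and 9.68 in knockouts 1 and 2, and the ductal factor Sox9 went the other way, at 8.25 in the wild-type pool and 6.63 and 6.27 in knockouts 1 and 2. The ductal surface marker Epcam was not well above background on any of the 3 arrays. Endothelial markers had 1 of 32 higher and 0 lower. Lists for tissue that can be carried over at dissection had medians near that of all genes, from −0.07 to 0.08 for pancreas, from 0.02 to 0.07 for muscle and up to 0.02 for gut, and the 7 adipose genes measured had −0.46 and −0.35. Single members lay far from these medians: Tff3 of the gut list differed by 4.75 and 5.60, and the myosin Myh2 and the giant filament protein Neb of the muscle list by −2.06 and −2.88 and by −1.63 and −2.22. The part of carried-over tissue in the 1-month values was not tested.

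**Figure D4:**
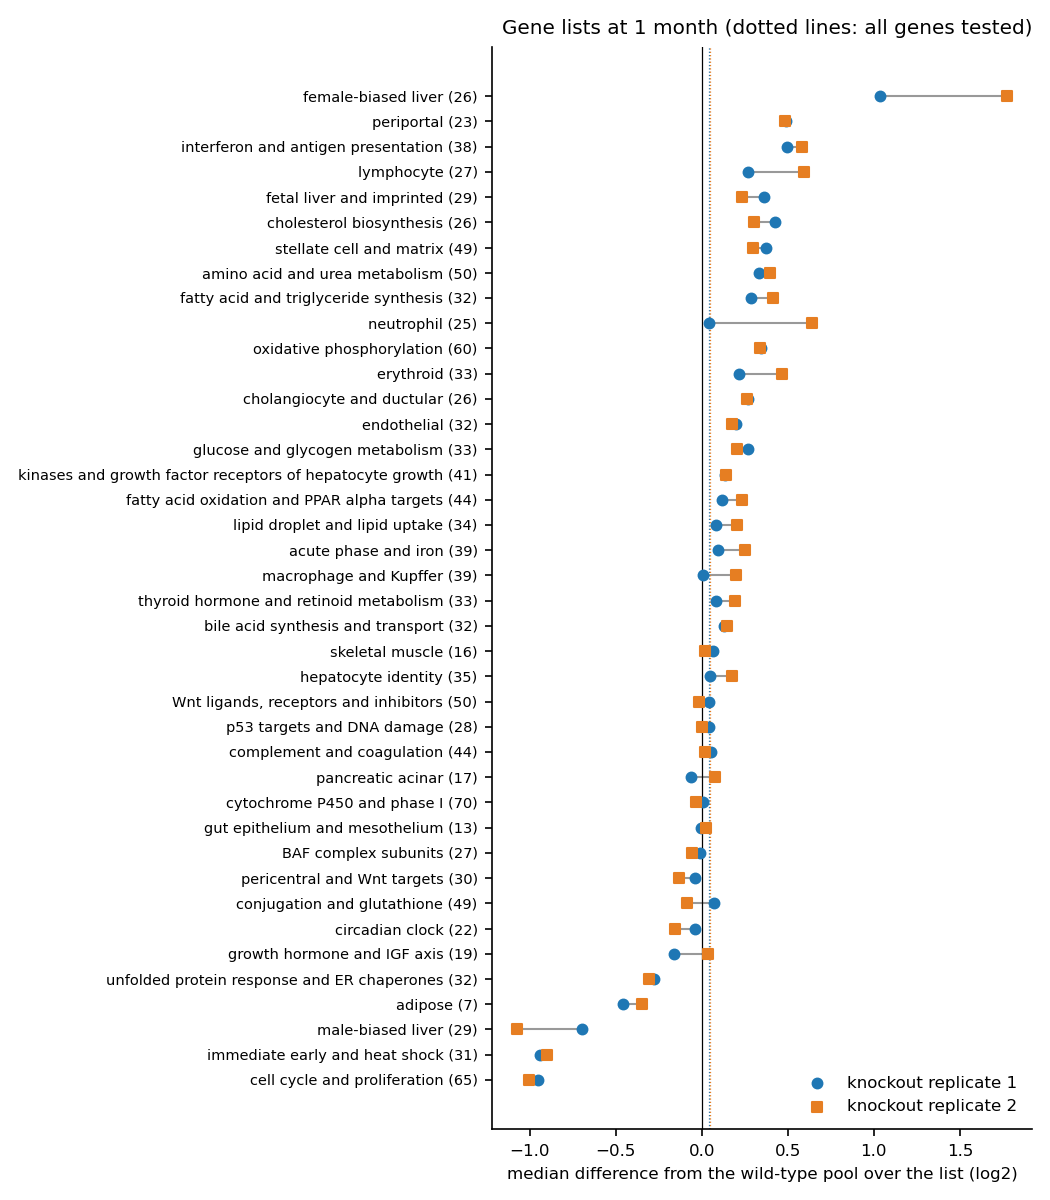
Median difference from the wild-type pool (log2) over each of 40 gene lists, in knockout 1 (circles) and knockout 2 (squares), with the number of measured genes in parentheses; dotted lines mark the medians of all 17451 genes. The female-biased list lies farthest to the right (1.03 and 1.78), and the cell cycle, early gene and male-biased lists farthest to the left.

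Other wide differences lay outside the lists, apart from Tff3, a mucosal repair peptide placed in the gut list. It read 10 in the wild-type pool and 14.75 and 15.60 in knockouts 1 and 2, 36.2-fold higher (limma adjusted p = 0.122). Dct, an enzyme of melanin synthesis, read 1.99 in the wild-type pool and 8.38 and 7.75 in knockouts 1 and 2, at least 14.0-fold higher (adjusted p = 0.0930). The peptide transporter Slc15a2 read 2.93 in the wild-type pool and 7.25 and 7.33 in knockouts 1 and 2, at least 8.19-fold higher (adjusted p = 0.294), but its second probe gave 0.22. For these 3 genes both knockouts were far above the pool.

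On the lower side the channel-like protein Tmc5 read 8.51 in the wild-type pool and 2.92 and 3.59 in knockouts 1 and 2, at least 19-fold lower (limma adjusted p = 0.0557). Wfdc2, a protease inhibitor of epithelia, read 10.30 in the wild-type pool and 6.69 and 5.85 in knockouts 1 and 2 (16.3-fold, adjusted p = 0.0711), and its relative Wfdc12 7.21 in the wild-type pool and 3.39 and 2.50 in knockouts 1 and 2 (at least 7.69-fold). Nat8f5, an acetyltransferase of kidney and liver, read 11.73 in the wild-type pool and 8.20 and 5.38 in knockouts 1 and 2, lower in both knockouts but unequal between them (adjusted p = 0.197). Others at least 10-fold below the pool were the NKAP-like protein Nkapl (at least 13.1-fold), the crystallin Crygn (at least 12.4-fold), the phosphatase-like Tpte (at least 11.8-fold), the centriole protein Tedc1 (at least 12-fold) and the sperm protein Cabyr (15.1-fold). Of these only Cabyr was above background in the knockouts.

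The genes chosen by the fold rule at 1 month were then read at the other ages. The arrays of those ages are not part of the fold rule. They do count in the filter on dim probes and in the choice of the probe for a gene. Of the 1253 higher genes 388 (31.0%) were also at least 1.5-fold higher in the 2-week knockout than in its wild type, and 78 (6.23%) lower. Over all genes the shares were 9.29% and 7.55%. Of the 950 lower genes 334 (35.2%) were lower at 2 weeks and 100 (10.5%) higher. At 5 days, where both knockouts had to pass, 12.5% of the higher genes were higher and 18.8% of the lower genes were lower, beside 3.85% and 3.87% of all genes. Those arrays held signal of other tissues: the skeletal muscle list had a median of 5.48 in 5-day knockout 1 and −0.08 in knockout 2, and the pancreatic acinar list one of 2.84 in the 2-week knockout. Its part in these shares was not tested.

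The difference between the wild types of 2 weeks and 5 days, which uses no 1-month array either, was read in the same sets. Of the genes higher at 1 month 43.7% were at least 1.5-fold lower in wild type at 2 weeks than at 5 days and 24.5% higher, beside 24.6% and 22.8% of all genes. Of the genes lower at 1 month these shares were 34.9% and 34.6%. These are single arrays per age, and the 5-day pool carried Xist signal. Both arrays also count in the filter on dim probes, and the part of that filter in these shares was not tested.

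Whether the knockout effect itself differed between 1 month and 5 days was asked by the difference of the 2 effects. No gene passed by limma with an adjusted p below 0.05, and 1842 of 17451 (10.6%) had an unadjusted p below 0.05. H19 came nearest, with a difference of 7.79 ± 0.30 (adjusted p = 0.0775): at 5 days its levels were 16.97 in wild type and 16.67 and 16.84 in the knockouts. Igf2 differed by 3.53 and Gpc3 by 3.16, Tiam2 by 3.75 and Hao2 by 3.40 (adjusted p = 0.203 for each). Rsph4a, a cilium protein, had a difference of 3.12 that came from 5 days alone, since it was not above background on any 1-month array.

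On the negative side were Plk3 (−5.22), Cyp7b1 (−4.18), Hspa1a (−2.83), C6 (−2.92), the protease Adamts16 (−4.26; at 1 month 5.81 in the wild-type pool and 2.25 and 2.62 in knockouts 1 and 2) and the pancreatic colipase Clps (−3.29), each with an adjusted p of 0.203. Clps is a marker of pancreas, read 4.44 in 5-day wild type, 6.79 and 6.77 in the 5-day knockouts and 10.42 in the 2-week knockout, and its part in these values was not tested. At 1 month it was not above background in either knockout.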

How the data were processed

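Total liver RNA was labelled with Cy3 and hybridised to one-colour Agilent arrays, per the labels' protocols, and spots were quantified with Agilent Feature Extraction 10.7, per the submitters' processing notes. The authors deposited processed signal intensity per spot, and a matrix of log2 values whose sorted columns differ by at most 0.0081 (the normalization tool is not given in the sources used here). All matrix columns were assigned to a sample (0 left over), with a Pearson r over probes of at least 0.999 against the scanner values.

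The deposited processed signal intensity was put on the log2 scale, unflagged spots of a probe were averaged, and arrays were aligned at their 75th percentile. A probe was kept if at least 2 of 8 arrays called it well above background, 82 probes with all spots flagged on some array were dropped, and the brightest probe stood for a gene (6137 of 17451 genes had several). RefSeq (GRCm38.p6) gave symbols for 33636 probes, and for 7538 the array's own name was kept. The probe counts over all non-control probes use the authors' log2 matrix. 

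limma 3.58.1 (R 4.3.3) was fitted with 6 groups of age and genotype (2 residual degrees of freedom, 2.20 from the prior). Arrays without a replicate are thereby taken to be as variable as the knockout pairs. Benjamini-Hochberg adjustment was used, and an adjusted p below 0.05 counts as passed. The fold rule asks for at least 1.5-fold on the same side in both knockouts. The fit was tested on simulated data. Same-numbered knockouts of 5 days and 1 month share only a number (correlation of their deviations −0.00042). 

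Members, gene lists and tests were chosen with earlier results of these data known. Named are Arid1a and Arid1b, up to 12 genes per direction with the largest smaller difference among those at least 2-fold in both knockouts, genes past the test, up to 5 per list and up to 6 per direction for 1 month minus 5 days by smallest p, clones and predicted genes left out; some genes that the rule names are not reported here. Genes outside this rule are marked in the text as chosen after their values were seen, as are Smarca4, Xist, Ddx3y, A1bg, Keg1 and Bcl6. The data.table package was version 1.17.8.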

Additional observations from a re-analysis of the deposited data

Results flagged for a closer look

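Several list medians lay on one side of wild type in both 5-day knockouts and on the other in both 1-month knockouts. These differences between ages were not tested, and the 5-day knockouts and the 1-month knockouts are set against different wild-type pools. The median of immediate early and heat shock genes was 1.238 lower at 1 month than at 5 days (a difference of −1.238 on the log2 scale), and that of the clock genes differed by −0.1917. On the positive side the widest were erythroid genes (0.9207), neutrophil genes (0.7793), cholesterol biosynthesis (0.7593) and fatty acid and triglyceride synthesis (0.6073). Acute phase and iron genes differed by 0.5385, amino acid and urea metabolism by 0.4941 and oxidative phosphorylation by 0.4564. Smaller were macrophage and Kupffer genes (0.2461), bile acid synthesis and transport (0.2172) and thyroid hormone and retinoid metabolism (0.2021). The 5-day values include Xist signal in the wild-type pool and knockout 1 of that age.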

How the results depend on the processing

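The medians of the 40 lists kept their direction in each of the 15 alternatives, and single genes did so with the exceptions below. For lists this was asked where both knockouts lay on the same side and their mean differed by at least 0.1. Alternatives that change only the fit or leave out a 5-day knockout return the same list medians by construction. Those without a 1-month knockout return the median of the other, whose side is part of the condition. Only a change of values, probes or filter could thus turn a list. Genes past the test, higher and lower, were 7 and 5 as reported, and 7 and 12 with the authors' matrix and with quantile normalization, 38 and 90 with normexp, 88 and 133 with median centring, 17 and 26 when a gene had to be above background on all 3 arrays, 7 and 19 with no filter and 50 and 74 with a trended, robust variance; the cause was not tested. With only the 3 1-month arrays, with slide as a block and with the replicate block the counts were 0 and 0, in fits with 1 residual degree of freedom. The slide block and the omission of either 5-day knockout each take the 5-day pair out of the spread. For this contrast they equal the fit of the 1-month arrays alone and say nothing on a slide effect. Without each knockout in turn they were 0 to 0, with 1111 to 1615 genes higher and 829 to 1103 lower at an unadjusted p below 0.05. Genes 1.5-fold higher and lower were 1253 and 950 as reported, 360 and 485 with normexp and 687 higher on all 3 arrays (fewer genes tested). Without 1-month knockout replicate 1 or 2, which leaves a single array to pass the rule, 1858 to 2171 were higher and 1307 to 1583 lower. For 1 month minus 5 days 2 genes passed with normexp, 2 with median centring, 1 on all 3 arrays and 4 with the trended variance. Values that changed sign were Rsph4a (−0.015 with the matrix and with quantile normalization, −0.057 with median centring, −0.023 to 0.030 without a 1-month replicate), Ddx3y (−0.035 with median centring, −0.0505 to 0.10 without a replicate), Xist (0.29 with the mean of probes, −0.044 to 0.014 without a replicate) and Gpr37 (0.97 with no filter). Genes near background, where most bounds lie, are the least precise.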
